A study of Mus musculus with 4 samples.

Results

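The 7 genes described here encode surface proteins that take part in leukocyte adhesion to vessels: Vcam1, Icam1, Icam2, Alcam, Mcam, Cd34 and Cd47. They were chosen by name, and all 7 were among the 11049 genes listed in each of the library tables. Each was followed in endothelial cells and in all other cells of the mouse kidney. A cell counted as endothelial when the genes Pecam1, Cdh5, Kdr and Tie1 together held at least 3 UMIs (unique molecular identifiers, which count captured transcripts and not reads) and at least 12 UMIs per 10000. This rule took 2885 of 10535 cells. None of the 7 genes entered it.

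Kidneys came from 10 to 14 week old C57BL/6J mice and were measured by single-cell RNA sequencing in droplets, with 1 library for each of 4 groups: angiotensin II-induced hypertension (A2 HTN), salt-sensitive hypertension (SS HTN), the saline control of the angiotensin II model and the normal-diet control of the salt-sensitive model. Kidneys of a group were pooled, dissociated and taken with magnetic beads against CD31, the endothelial protein encoded by Pecam1, and next against podoplanin. The aim given for the series is the effect of hypertension on lymphatic endothelium and its difference between models. Both controls share 1 table in which a barcode ending separates control library 1 from control library 2. The labels do not tie either ending to a model, hence the control is their sum, with each also given apart.

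Endothelial cells made up 1223 of 2837 cells in A2 HTN and 1517 of 3284 in SS HTN, against 145 of 4414 in the control, of which 19 lay in control library 1 and 126 in control library 2. Their UMIs over the shared genes summed to 5517870 in A2 HTN, 3960786 in SS HTN and 377434 in the control, with medians of 4792, 2371 and 2684 UMIs per cell in the same order. Cells just below the rule, which a looser limit of 2 UMIs and 8 per 10000 would add, numbered 141, 191 and 95. Cells just above it, which a stricter limit of 5 UMIs and 20 per 10000 would drop, numbered 150, 304 and 35. Against the CD31 and podoplanin label, Prox1, the master transcription factor of lymphatic endothelium, had a UMI in 11 of 1223 A2 HTN and 15 of 1517 SS HTN endothelial cells. In the control 0 of 145 had one, a count compatible with shares up to 2.07%. Of the 10 lymphatic markers 4 were in all tables, and the other 3 were frequent: Flt4 had a UMI in 466 A2 HTN, 273 SS HTN and 30 control endothelial cells, Nrp2 in 611, 478 and 48, and Itga9 in 293, 303 and 23. Flt4 and Nrp2 are also made by some blood endothelium. Since these markers differ, the cells are called endothelial, with no lymphatic name. Levels are summed UMIs scaled to counts per 1000000 UMIs of the shared genes (CPM). Markers of kidney tubules, a list of 35 genes, summed to 1212 CPM in A2 HTN, 2107 in SS HTN and 3039 in control endothelial cells, and to 14145 in the 19 cells of control library 1. Of the 12 myeloid markers, the 4 in the tables summed to 31.9, 21.2 and 21.2 CPM in the same order, and the shared genes hold none of the lymphocyte markers. Libraries shared at most 2 cell barcodes with each other. With 1 library per group nothing was tested, and every interval covers 95% counting error only.

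Leukocytes leave the blood in steps: selectins let them roll, chemokines activate their integrins, and the integrins then bind proteins of the immunoglobulin family on the endothelium. VCAM-1 binds the integrin built with Itga4, and ICAM-1 and ICAM-2 bind those built with Itgal and Itgb2. VCAM-1 and ICAM-1 are the classic cytokine-induced members, raised through NF-kB, while ICAM-2 is made constitutively by resting endothelium. ALCAM binds CD6 on T cells and is also made by epithelial cells, MCAM (CD146) is a junctional protein of endothelium and mural cells, CD34 is a sialomucin that can present L-selectin ligands, and CD47 binds SIRP-alpha on phagocytes and thrombospondin. Several of these proteins are also made by kidney tubule cells.

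The genes lie on 6 chromosomes of GRCm38, the assembly also called mm10. Vcam1 spans chr3:116109949-116129688 on the minus strand and Icam1 chr9:21015985-21028817 on the plus strand. Icam2 spans chr11:106377656-106388075 (minus), Alcam chr16:52248996-52454074 (minus), Mcam chr9:44134469-44142727 (plus), Cd34 chr1:194938819-194961279 (plus) and Cd47 chr16:49800533-49915010 (plus).

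The promoter of Icam1 is shown because Icam1 is the member that differed most between the models among those with over 100 endothelial UMIs in each, and because it was found with Vcam1 in the same cells of A2 HTN. It comes from the RefSeq promoter table for GRCm38.p6, at chr9:21015690-21015989 on the plus strand. That table holds 5 of the 7 members and has no entry for Vcam1 or Icam2, so neither was searched for motifs. The Icam1 promoter runs from 250 bases before to 50 after the RefSeq start and is written 5′ to 3′. Capitals mark GGAAATTCC, an NF-kB type motif that was searched on both strands and was added after the data were seen.
Icam1: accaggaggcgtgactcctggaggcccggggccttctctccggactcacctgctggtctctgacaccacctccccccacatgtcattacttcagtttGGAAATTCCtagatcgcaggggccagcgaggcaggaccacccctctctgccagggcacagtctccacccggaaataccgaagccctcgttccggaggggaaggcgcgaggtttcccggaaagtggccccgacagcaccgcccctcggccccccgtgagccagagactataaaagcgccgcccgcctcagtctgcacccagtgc
The motif begins 153 bases before the start, and 0.317% of 32851 promoters of the same length hold it. Of the 5 members with a promoter in the table, Icam1 is the one with this motif. That cannot set Icam1 apart, because the motif was added after the data were seen. A looser NF-kB type pattern, with positions left free, was found in Mcam and Cd34 but not in Icam1, and 18.4% of promoters hold it. An interferon response type pattern was found in none of the 5 and in 3.44% of promoters. A match describes the letters and does not show binding.

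Vcam1, the integrin ligand of activated endothelium, had 72.1 CPM in A2 HTN (95% interval 65.2 to 79.6, 398 UMIs) and 57.8 CPM in SS HTN (50.6 to 65.8, 229 UMIs), against 39.7 CPM in the control (22.2 to 65.5, 15 UMIs). All 15 control UMIs came from control library 2, at 43.7 CPM. Control library 1 had 0, which allows up to 87.3 CPM, more than either hypertension level. The A2 HTN and SS HTN intervals meet at their edges, and both overlap that of the control.

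Icam1, the ligand of the leukocyte integrins with Itgb2, had 106 CPM in A2 HTN (97.4 to 114.8, 584 UMIs) and 54.0 CPM in SS HTN (47.0 to 61.8, 214 UMIs), against 87.4 CPM in the control (60.2 to 122.8, 33 UMIs). The control level thus lay between the hypertension libraries, and its interval reached both. Control library 2 had 96.2 CPM and control library 1 had 0, again allowing 87.3 CPM. Icam2, the constitutive relative of Icam1, had 455 CPM in A2 HTN, 346 CPM in SS HTN and 453 CPM in the control (472 in library 2 and 262 in library 1).

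Alcam, the CD6 ligand, had 6.52 CPM in A2 HTN (36 UMIs) and 21.5 CPM in SS HTN (85 UMIs), against 10.6 CPM in the control from 4 UMIs. Mcam, the junctional CD146, had 111 CPM in A2 HTN, 97.5 CPM in SS HTN and 87.4 CPM in the control, with 87.3 and 87.4 CPM in the control libraries. The intervals of the 3 groups overlap. Cd34 had 637 CPM in A2 HTN (616.0 to 658.3) and 394 CPM in SS HTN (374.8 to 414.2), against 416 CPM in the control (353.4 to 486.4). Cd34 was thus high in A2 HTN alone, with SS HTN and the control overlapping. Cd47, the SIRP-alpha ligand, had 783 CPM in A2 HTN, 542 CPM in SS HTN and 752 CPM in the control. SS HTN thus lay below the summed control and control library 2 (787 CPM), but above the 407 CPM of control library 1 (222.8 to 683.7, 14 UMIs), whose interval includes it. Levels of different genes are not compared, since they are not per length.

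**Figure D1:**
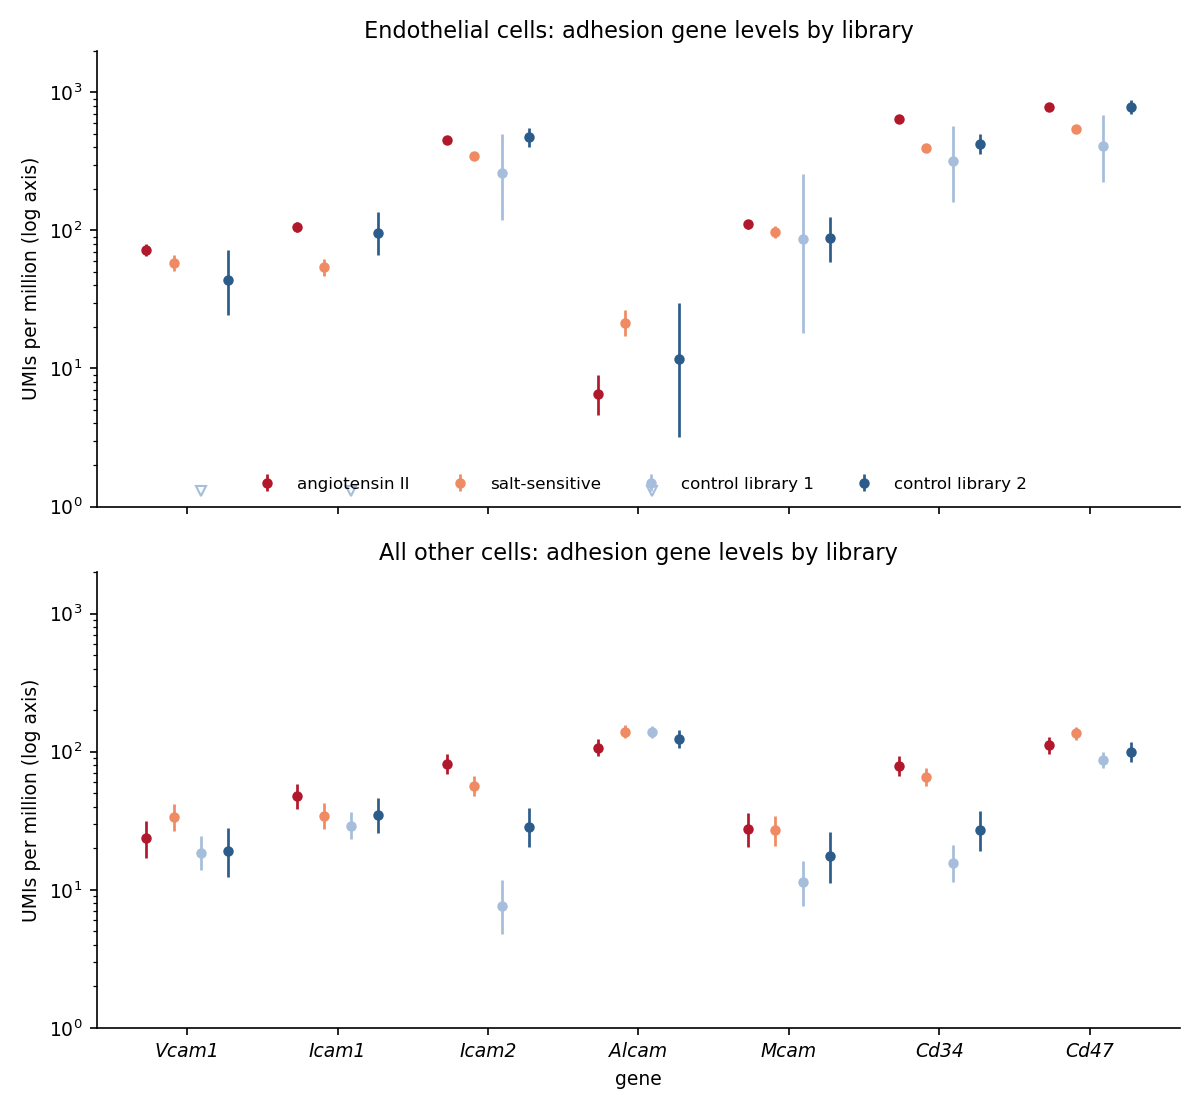
CPM (log axis) of each of the 7 genes in endothelial cells (top) and all other cells (bottom), for the angiotensin II library, the salt-sensitive library and control libraries 1 and 2. Points are summed levels, bars are 95% Poisson intervals, and open triangles at the lower edge mark 0 UMIs. Vcam1, Icam1 and Alcam are at 0 in the 19 endothelial cells of control library 1. In the remaining libraries Alcam is the gene with more in other cells than in endothelial cells.

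Over the control, 2 of the 7 genes were more than 1.5-fold higher in A2 HTN endothelial cells and 0 were lower. A log2 ratio here is that of CPM + 5, and its interval is that of the plain ratio of sums. These genes were Vcam1, at a log2 ratio of 0.79 (0.12 to 1.71), and Cd34, at 0.61 (0.38 to 0.85). Cd34 lies just past the limit, and it fell short of it at 0.58 without control library 1, 0.56 with cells under 1% tubule UMIs, 0.55 with the stricter cell limit and 0.45 with thinned cells. Of 10224 genes with 20 or more UMIs, 8.77% were past 1.5-fold higher and 11% lower. Icam1 stood at 0.26 (-0.23 to 0.83), Mcam at 0.32 (-0.17 to 0.89), Cd47 at 0.06 (-0.12 to 0.24), Icam2 at 0.0069 (-0.22 to 0.24) and Alcam at -0.44 (-2.18 to 1.25), and the intervals of these 5 reach both sides of 0. The median of the 7 was 0.26, beside -0.02 for all genes tested.

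In SS HTN over the control, Icam1 was more than 1.5-fold lower, at -0.65 (-1.23 to -0.12), and Alcam more than 1.5-fold higher, at 0.76 (-0.39 to 2.93) from 4 control UMIs. Of 10282 genes, 10.8% were past that fold higher and 10.1% lower, so 1 of 7 in each direction is near the background. With cells thinned to 1000 UMIs, Icam1 stood at 0.057 from 80 SS HTN and 7 control UMIs, and with the looser cell limit Alcam stood at -0.022. Neither call held with the stricter limit, where Icam1 stood at -0.58 and Alcam at 0.43. Without control library 2, which leaves 19 control cells, Cd47 stood at 0.41, Icam2 at 0.39 and Cd34 at 0.30. Vcam1 was at 0.49 (-0.21 to 1.40), Mcam at 0.15, Cd34 at -0.08, Icam2 at -0.38 (-0.62 to -0.15) and Cd47 at -0.47 (-0.65 to -0.29). The median of the 7 was -0.08, beside -0.01 for all genes. Both comparisons use the same control cells.

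Between the models the counts are deeper and the intervals narrow. Icam1, at a log2 ratio of 0.91 (0.74 to 1.20) for A2 HTN over SS HTN, and Cd34, at 0.69 (0.61 to 0.78), were more than 1.5-fold higher, and Alcam, at -1.20 (-2.32 to -1.14), was more than 1.5-fold lower. Among 10697 genes, 3.25% were past 1.5-fold higher and 7.59% lower. Cd47 stood at 0.53 (0.46 to 0.61), Icam2 at 0.39 (0.30 to 0.49) and Vcam1 at 0.30 (0.08 to 0.56), each with an interval above 0. Mcam stood at 0.17 (-0.0044 to 0.37), with an interval that reaches 0. The median of the 7 was 0.39, beside -0.03 for all genes.

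**Figure D2:**
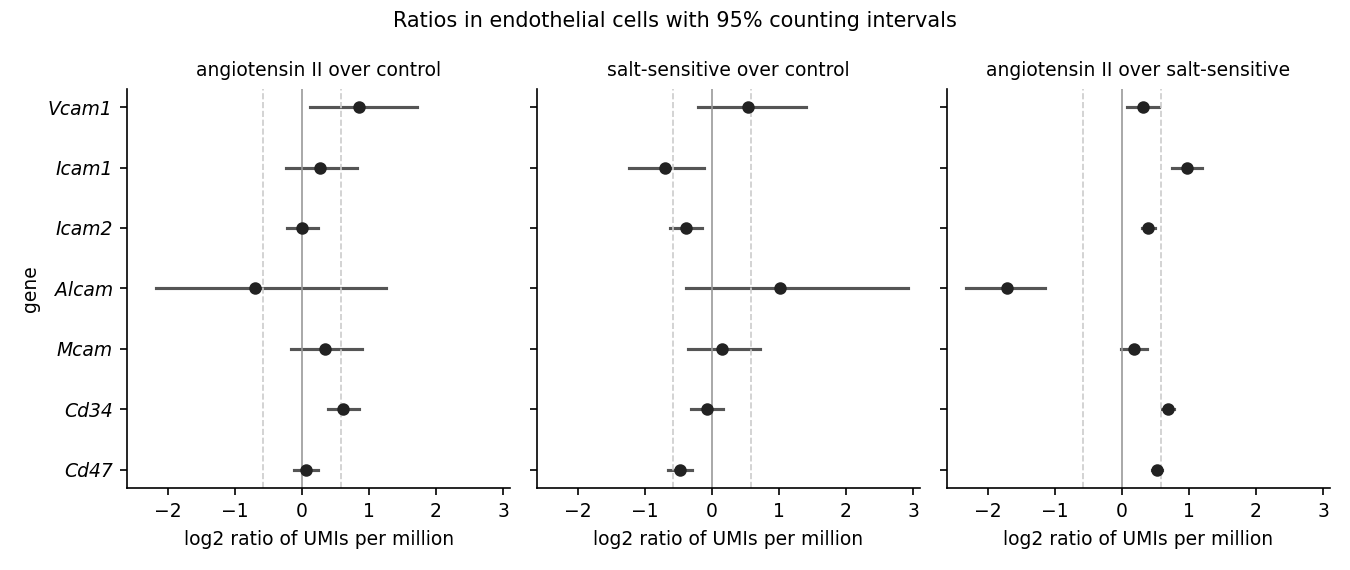
Log2 ratios of CPM in endothelial cells for angiotensin II over control, salt-sensitive over control and angiotensin II over salt-sensitive. Points are plain ratios without a pseudocount, lines their 95% counting intervals, and dashed lines mark 1.5-fold. The intervals are wide over the control, which has 145 endothelial cells, and narrow between the hypertension libraries, where Icam1 and Cd34 lie to the right and Alcam to the left.

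Depth was then made equal by thinning each cell to 1000 UMIs, which left out 29 A2 HTN, 39 SS HTN and 10 control endothelial cells. Icam1 had a UMI in 8.54% of thinned A2 HTN endothelial cells (26.1% unthinned) and 4.80% of SS HTN cells (11.01% unthinned), against 5.19% of control cells (16.6% unthinned). Cd34 had one in 44.7% of A2 HTN, 31.5% of SS HTN and 35.6% of control cells, and Cd47 in 49.8%, 39.9% and 51.1%. Shares of Icam2 were 33.3%, 28.4% and 38.5%, and those of Mcam 10.1%, 8.25% and 8.15%. Alcam had a UMI in 1.01%, 2.17% and 0.741% of cells in the same order. For Vcam1 the thinned shares were 3.94% in A2 HTN, 3.52% in SS HTN and 2.96% in the control. The median depth of all other cells was 863, 1005 and 747 UMIs, and thinning left out 942, 885 and 2806 of them. Of the 672, 882 and 1463 deeper ones that remained, 2.83%, 2.15% and 1.71% had a Vcam1 UMI, in the same order. A single Vcam1 UMI therefore says little about a cell. Cells with 3 or more Vcam1 UMIs numbered 30, 24 and 1 among endothelial cells and 2, 4 and 1 among the other cells, before thinning.

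Vcam1 was concentrated in few cells. In A2 HTN 11 of 1223 endothelial cells held 50% of its UMIs or more and in SS HTN 15 of 1517, while for Cd47 it took 295 and 273 cells. The top cell held 46 Vcam1 UMIs in A2 HTN and 23 in SS HTN, and the top 5 cells held 33.2% and 29.7%. Without those 5 cells of each library, an alternative added after the data were seen, Vcam1 stood at 48.5 CPM in A2 HTN and 40.9 CPM in SS HTN. Icam1 was less concentrated, with 70 cells in A2 HTN and 60 in SS HTN for the same part of its UMIs.

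To place these cells, endothelial cells were clustered alone, with the 7 genes left out of the clustering. Of 13 clusters, 1 was venous-like from its markers, with Ptn as its leading gene, 2 arterial-like, 1 peritubular-capillary-like and 1 glomerular-like. A further 2 carried proximal tubule genes, and the rest stay unnamed. The venous-like cluster 8 held 31 A2 HTN, 56 SS HTN and 5 control cells, and Vcam1 stood there at 717 CPM in A2 HTN (585.4 to 869.8), 569 CPM in SS HTN (468.4 to 685.6) and 696 CPM in control library 2 (347.5 to 1246), which overlap. Of the 15 control Vcam1 UMIs, 11 came from those 5 venous-like cells. In SS HTN 1 venous-like cell held 23 of the 111 Vcam1 UMIs of that cluster. Arterial-like cluster 11, led by Mgp, a matrix gene of arteries, had 502 CPM of Vcam1 in A2 HTN (21 cells) and 407 CPM in SS HTN (46 cells). Over all libraries Vcam1 had a UMI in 55 of 92 venous-like and 38 of 68 of these arterial-like cells. In glomerular-like cluster 5 it stood at 2.29 CPM, and in cluster 6, led by Cryab, a chaperone of the kidney medulla, at 2.60 CPM.

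The models differed in where Vcam1 UMIs lay. Clusters 8 and 11 together held 31.9% of the Vcam1 UMIs in A2 HTN (4.25% of its endothelial cells) but 77.3% in SS HTN (6.72% of cells). Peritubular-capillary-like cluster 0, led by Igfbp3 and Esm1, held 46.5% in A2 HTN (26.7% of cells) and 3.06% in SS HTN (7.32% of cells). Within cluster 0 the level of Vcam1 was 116 CPM in A2 HTN (99.98 to 134.1, 185 UMIs) and 25.7 CPM in SS HTN (10.3 to 53.0, 7 UMIs), a log2 ratio of 1.98 (1.10 to 3.51), beside 18.5 CPM from 2 UMIs in control library 2. Vcam1 had a UMI in 37 of 326 A2 HTN and 5 of 111 SS HTN cells of that cluster. Much of the A2 HTN level rests on few cells, since 5 cells held 124 of the 185 UMIs. Without those 5 cells it was 39.0 CPM, inside the interval of all SS HTN cells. The same step in SS HTN, where 5 cells held all 7 UMIs, leaves 0 CPM.

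**Figure D3:**
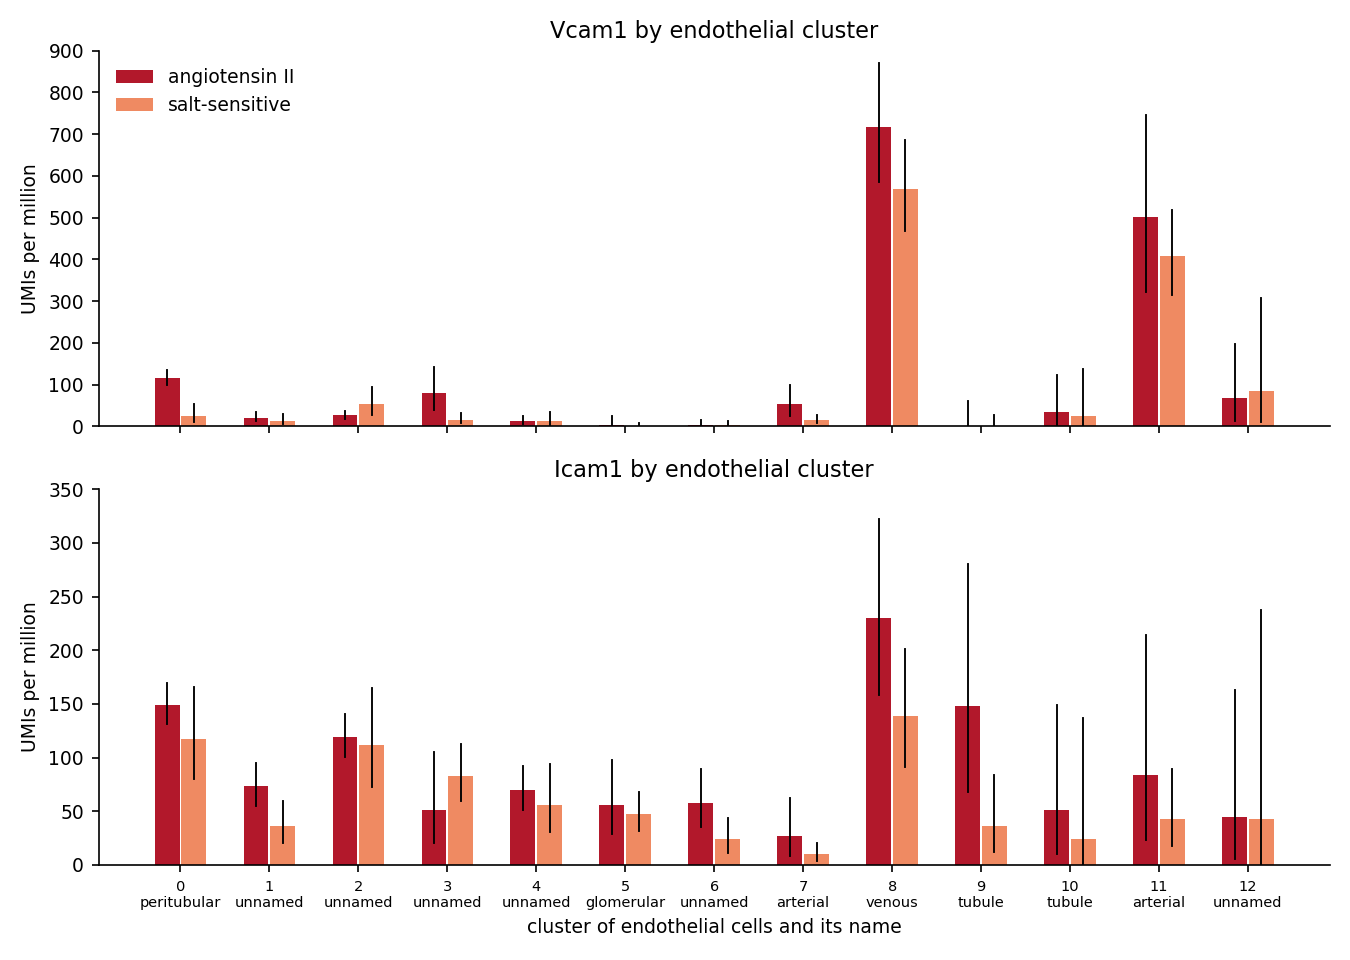
Vcam1 (top) and Icam1 (bottom) in CPM in each of 13 endothelial clusters, in the angiotensin II and the salt-sensitive library. Bars are summed levels from 0, and lines are 95% Poisson intervals. Vcam1 is high in venous-like cluster 8 and arterial-like cluster 11 of both libraries and in cluster 0 of the angiotensin II library, while Icam1 is spread over more clusters.

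Icam1 was spread more widely. Over all libraries it stood at 169 CPM in the venous-like cluster, 143 CPM in peritubular-capillary-like cluster 0, 116 CPM in unnamed cluster 2 and 147 CPM in unnamed cluster 12, but at 13.4 CPM in arterial-like cluster 7. In the 30 A2 HTN endothelial cells with 3 or more Vcam1 UMIs, Icam1 stood at 488 CPM, against 95.04 CPM in the other 1193 (log2 ratio 2.30, 1.99 to 2.71). Without the cell with most Icam1 UMIs, which held 26 of the 74, it stood at 332 CPM. The 24 such SS HTN cells had 82.7 CPM of Icam1, against 53.3 CPM in the other 1493 (0.59, -0.60 to 1.64). In A2 HTN, 10 of the 30 cells lay in peritubular-capillary-like cluster 0, where their Icam1 level was 939 CPM (537 CPM without the cell with most), against 115 CPM in the 289 cells of that cluster with no Vcam1 UMI. A further 14 lay in clusters 8 and 11, with 261 CPM (152.3 to 418.5), where the 21 SS HTN cells had 77.7 CPM (31.2 to 160.1). Cells of clusters 8 and 11 with no Vcam1 UMI had 120 CPM of Icam1 in A2 HTN (51.7 to 235.8). In SS HTN such cells had 114 CPM (66.1 to 181.8), and those with 1 or 2 Vcam1 UMIs had 85.3 CPM (40.9 to 156.9). Within clusters 8 and 11 of SS HTN the level was thus not higher in the cells with Vcam1. Over all clusters of SS HTN, cells with 1 or 2 Vcam1 UMIs had 106 CPM of Icam1 (68.1 to 158.1). Cells with none had 50.03 CPM (43.02 to 57.8), which overlaps the interval of those with 3 or more (35.7 to 162.9). The SS HTN cells with 3 or more Vcam1 UMIs were higher in other members, with Alcam at a log2 ratio of 2.15 (1.29 to 3.37, 10 UMIs) over the rest and Mcam at 0.85 (0.08 to 1.58). The SS HTN cell with 23 Vcam1 UMIs alone held 4 of those 10 Alcam UMIs. That cell lay in venous-like cluster 8 when endothelial cells were clustered alone. With all cells clustered together at resolution 0.5, it was the 1 endothelial cell of 62 in an unnamed cluster led by Hmcn1. The A2 HTN cells with 3 or more Vcam1 UMIs had 0 Alcam UMIs, and Mcam stood at -0.72 (-1.83 to 0.13). After thinning, Icam1 was detected in 10 of 47 A2 HTN cells with a Vcam1 UMI (21.3%) and in 8.02% of the rest, and in 7 of 52 SS HTN cells (13.5%) and 4.49% of the rest.

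The other members had patterns of their own over these clusters. Alcam reached 99.8 CPM in arterial-like cluster 11 and 31.2 CPM in arterial-like cluster 7, beside 101 CPM in tubule-gene cluster 10, and stood at 7.10 CPM in cluster 0. Arterial-like clusters 7 and 11 held 7 of 36 A2 HTN and 42 of 85 SS HTN Alcam UMIs, with 4.74% and 16.7% of the cells. Outside these and the tubule-gene clusters, Alcam was at 3.87 CPM in A2 HTN (2.37 to 5.98) and 11.99 CPM in SS HTN (8.35 to 16.7). Mcam reached 257 CPM in arterial-like cluster 11 and 208 CPM in unnamed cluster 4, and had 45.2 CPM in the venous-like cluster. Cd34 ranged from 239 CPM in arterial-like cluster 7 and 243 CPM in the glomerular-like cluster to 760 CPM in cluster 4. Icam2 stayed between 346 and 551 CPM outside the tubule-gene clusters 9 and 10. Cd47 reached 969 CPM in cluster 0.

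Cluster make-up differed between the libraries, so the comparison of models was repeated within the 6 clusters with 50 or more cells of each hypertension library. Clusters 0 and 2, where Icam1 was high, held 46.6% of A2 HTN and 12.8% of SS HTN endothelial cells. The glomerular-like and arterial-like clusters 5, 7 and 11, where Cd34 was low, held 8.91% of A2 HTN and 30.7% of SS HTN cells. Within clusters, Icam1 was higher in A2 HTN in 6 of 6, with a median log2 ratio of 0.31 and a range of 0.09 to 1.12, and the intervals of clusters 1 and 6 lay above 0. That median is below the 0.91 seen over all endothelial cells. Cd34 was higher in 5 of 6 (median 0.30), Icam2 in 5 of 6 (0.56), Cd47 in 5 of 6 (0.20) and Vcam1 in 5 of 6 (0.28, range -0.88 to 1.98). For Vcam1 the interval lay above 0 in cluster 0 alone, clusters 5 and 6 held 1 UMI in each library, and clusters 8 and 11 had too few A2 HTN cells to enter. Mcam was higher in 3 of 6 and Alcam in 2 of 6, at medians of -0.02 and -1.29. Alcam was sparse here, with 0 A2 HTN UMIs in clusters 1 and 2 and no cluster above 10 UMIs in either library. Its ratios within clusters therefore depend on the added 5 CPM.

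**Figure D4:**
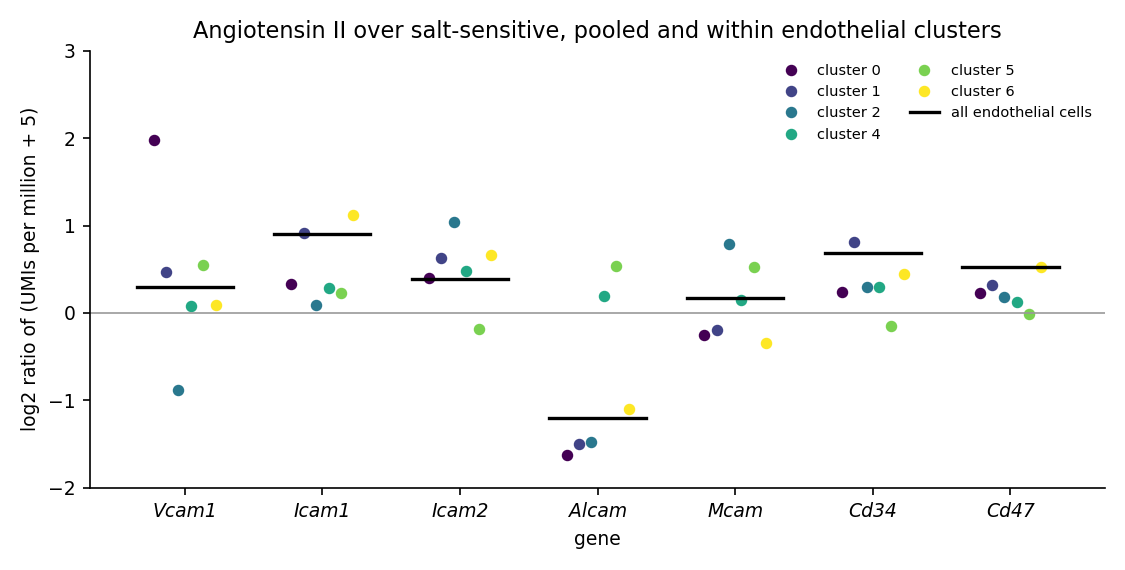
Log2 ratio of CPM + 5, angiotensin II over salt-sensitive, for each gene. Black lines give the ratio over all endothelial cells and points the ratio within each of 6 clusters with 50 or more cells per library. All 6 points of Icam1 lie above 0 and 4 of 6 points of Alcam below it, and the Vcam1 point at 1.98 is cluster 0.

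When all cells were clustered together, again without the members, the genes whose level over the 10 clusters was most like that of Vcam1 included Zyx (Pearson r 0.96), Il33 (0.93), Sema3d (0.90) and Tm6sf1 (0.89), of 11049 genes. Zyx encodes a focal adhesion protein, Il33 a nuclear cytokine and Sema3d a guidance ligand. Over the same clusters the other members had r between 0.05 for Alcam and 0.45 for Cd47. Over the 13 endothelial clusters the most alike were Tgm2, Ctsh, Serpinb6b, Il1r1 and Traf1, at r of 0.85 to 0.91, and Icam1 had the highest r of the members, at 0.43. With 8 joint clusters at resolution 0.5, Zyx was again first (r 0.97), none of the other genes named for the joint clusters was among the 5 most alike, and the members ran from -0.09 for Cd34 to 0.42 for Alcam. The order of the members therefore depends on the clustering. The points share libraries and depth, so r is a description.

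In every hypertension library and in the summed control, 6 of the 7 genes were higher in endothelial cells than in other cells and Alcam was lower. In control library 1, with 19 endothelial cells, Vcam1 and Icam1 had 0 endothelial UMIs, which allows up to 87.3 CPM. There they stood at 18.6 and 29.2 CPM in other cells. Vcam1 was 2.70-fold higher in A2 HTN, 1.63-fold in SS HTN and 1.89-fold in the control, on the CPM + 5 scale. Cd34 was 7.62-fold, 5.64-fold and 17.2-fold higher, and Icam2 5.29-fold, 5.72-fold and 23.4-fold higher, in the same order. Alcam had log2 ratios of -3.28, -2.45 and -3.15. The background is large here, with 17.2%, 15.7% and 19.4% of genes more than 2-fold higher in endothelial cells and 29.8%, 27.4% and 32.8% lower. Under the stricter limit Vcam1 in SS HTN stood at a log2 ratio of 0.13, beside 0.71 as reported.

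Other cells are mostly tubule cells. In these, Icam2 had 81.9 CPM in A2 HTN and 56.4 CPM in SS HTN, against 14.6 CPM in the control, and Cd34 had 79.3 and 65.8 CPM, against 19.5 CPM. Mcam had 27.3 and 27.0 CPM, against 13.4 CPM. Icam2, Cd34 and Mcam were thus more than 1.5-fold higher in both models, where 8.63% of genes in A2 HTN and 7.06% in SS HTN were past that fold higher (4.19% and 1.8% lower), at log2 ratios of 2.15, 1.78 and 0.81 in A2 HTN and of 1.65, 1.53 and 0.80 in SS HTN. The control libraries 1 and 2 were unlike, with 7.66 and 28.5 CPM of Icam2, 15.7 and 27.0 CPM of Cd34 and 11.3 and 17.5 CPM of Mcam. Without control library 1, Mcam was not past 1.5-fold, at 0.52 in A2 HTN and 0.51 in SS HTN, and Icam2 in SS HTN stood at 0.88. The 4 genes of the endothelial rule moved with them, at 401 CPM in A2 HTN and 436 CPM in SS HTN, against 193 CPM in the control, and their part in the result was not tested. Other cells that fell in endothelial clusters of the joint clustering numbered 95 in A2 HTN, 191 in SS HTN and 41 in the control. Joint clusters 0, 1, 2, 3 and 7 hold few endothelial cells. Of these, 1 and 2 were named from distal tubule markers, and 0, 3 and 7 stay unnamed. Among their other cells, Icam2 stood at 47.9 CPM in A2 HTN and 22.9 in SS HTN, against 9.15 in the control. Cd34 stood at 52.6 and 36.3, against 17.3 CPM, and Mcam at 24.5 and 21.5, against 11.5 CPM.

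Vcam1 in other cells had 23.6 CPM in A2 HTN and 33.5 CPM in SS HTN, against 18.7 CPM in the control, and only the SS HTN level was past 1.5-fold, at a log2 ratio of 0.70. Of its 82 SS HTN UMIs, 42 came from the 191 cells in endothelial clusters, 27 of them from 1 cell. In other cells of joint clusters 0, 1, 2, 3 and 7, Vcam1 stood at 17.3 CPM in A2 HTN, 17.7 in SS HTN and 17.3 in the control, so no difference was detectable there at this depth. Icam1 had 47.7 CPM in A2 HTN and 34.3 CPM in SS HTN, against 31.1 CPM in the control. Alcam had 107, 139 and 134 CPM and Cd47 111, 136 and 91.5 CPM in the same order. Between the models none of the 7 genes was past 1.5-fold in other cells, where 3.01% of genes were higher and 2.73% lower. Here and above, fewer cells of a type and less RNA per cell are summed within a class and cannot be told apart.

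Among 30 other endothelial adhesion and transmigration genes, 19 were in the tables. These include Pecam1 and Cdh5, whose UMIs also chose the endothelial cells, so the levels of both are partly set by the rule. The median log2 ratio of the 19 for A2 HTN over SS HTN was 0.18. Of them 5 were more than 1.5-fold higher and 0 lower, beside 3.25% and 7.59% of all genes. Cd151, a tetraspanin that clusters integrins, stood at 1.15 (1.04 to 1.34), with 273 CPM in A2 HTN and 120 CPM in SS HTN. Jam3, a junctional adhesion protein, stood at 0.97, Nectin2 at 0.81 and Emcn, a sialomucin of capillaries and veins, at 0.63. Over the control, Cd151 and Jam3 were more than 1.5-fold lower in SS HTN, at -0.76 and -0.72, which belong to 3 lower and 1 higher of the 19, beside 10.1% and 10.8% of all genes. In A2 HTN over the control 1 of 19 was higher and 0 lower. Sele and Selp, the endothelial selectins, are outside the shared genes.

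Of 28 NF-kB and cytokine receptor genes upstream of adhesion gene induction, 26 were in the tables. For A2 HTN over SS HTN, 3.25% of all genes were more than 1.5-fold higher and 7.59% lower. Of the 26, 4 were more than 1.5-fold higher and 0 lower (median 0.16). These were Tnfrsf1a, the main tumour necrosis factor receptor, at 0.71 (0.58 to 0.88), Ifngr2, a chain of the interferon gamma receptor, at 0.66, Irf1, an interferon-induced transcription factor, at 0.65, and Relb, an NF-kB subunit, at 0.63. Over the control, 2 were higher and 3 lower in A2 HTN (median -0.07), and 2 were higher and 5 lower in SS HTN (median -0.22). All genes gave 8.77% higher and 11% lower in A2 HTN and 10.8% and 10.1% in SS HTN. Apart from the 5 lower, the counts over the control are thus near the background. Chuk, an NF-kB kinase subunit, was lower in both, at -0.73 and -0.66, and Ifngr2 was lower in SS HTN, at -0.83. Each of these comparisons over the control rests on the same 145 cells.

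Of 14 anchors that link adhesion proteins to the cytoskeleton, 1 was more than 1.5-fold lower in A2 HTN than in SS HTN and 0 were higher. Of all genes, 7.59% were lower and 3.25% higher, so these counts are near the background. The lower one was the actin cross-linker Actn1, at -0.78 (-1.46 to -0.55). Of 12 shedding proteases and their regulators 9 were in the tables, and Timp2, a metalloproteinase inhibitor, was lower in A2 HTN than in SS HTN, at -1.57 (-2.12 to -1.47), with 19.9 and 68.9 CPM. Timp2 was the 1 of the 9 past 1.5-fold between the models. In SS HTN over the control, 2 of these 9 were more than 1.5-fold higher and 0 lower, with a median of 0.42, beside 10.8% and 10.1% of all genes. In A2 HTN over the control 1 was higher and 0 lower (median 0.08), beside 8.77% and 11% of all genes. Of 17 leukocyte partners of the members 6 were in the tables. With 20 or more UMIs, 5 of them entered A2 HTN over the control, 4 SS HTN over the control and 5 A2 HTN over SS HTN. Of these 0 were past 1.5-fold, which with so few genes does not differ from the shares above.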

How the data were processed

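The authors deposited raw UMI counts (whole numbers) for each gene in each cell: 1 table per hypertension library, 1 of both controls and 1 that joins the hypertension libraries. Cell Ranger 7.0.0 and Seurat 4.1 are listed without a role, per the submitters' processing notes, as is mm10. Tables were matched to groups by name. The joined table served as an alternative, since its 2727 shared A2 HTN cells hold 88.2% of their own UMIs, while its 3251 shared SS HTN cells are identical. No source used here says whether the control table was brought to a like depth.

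Counts were summed per library and class over 11049 shared genes. CPM have exact Poisson, shares exact binomial and ratios exact conditional binomial 95% intervals, and a count of 0 allows 3 counts. A log2 ratio uses CPM + 5, which understates changes of low genes. Called means past 1.5-fold, among genes with 20 or more UMIs over both sides, with no p-value. Intervals were checked on simulated counts. Clustering used scanpy 1.11.5 and leidenalg 0.10.2 (2000 variable genes, 30 components, 15 neighbours, resolution 1, no integration). Clusters were named from 3 or more markers of a class within the 50 genes of largest fold, so the names are not the authors'. No doublet caller was run and 0 cells were removed, so doublets remain. All 7 members are named. From each further list, genes past 1.5-fold in an endothelial comparison with 20 or more UMIs on each side are named, at most 4 per comparison. Some genes that these rules would name are not reported here. Members and lists were chosen with earlier results of these data known, and the clustering of endothelial cells alone was added after the data were seen.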

Additional observations from a re-analysis of the deposited data

Results flagged for a closer look

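Alcam in other cells stood at a log2 ratio of -0.31 for A2 HTN over the control and 0.059 for SS HTN over the control, and the sign was the same against each control library. The models thus lay on opposite sides of the control as reported, a difference that was not tested and that lies within 1.5-fold in both. SS HTN lay below the control too under the stricter cell limit, at -0.18, and with thinned cells, at -0.17.

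Genes outside the shared set gave UMIs in the joined hypertension table. Epha2, a receptor kinase of endothelial junctions, had 181 UMIs in A2 HTN and 84 in SS HTN endothelial cells, or 30.7 CPM (26.4 to 35.5) and 21.3 CPM (17.0 to 26.3). Selp, which encodes P-selectin, had 2 UMIs in A2 HTN and 13 UMIs in SS HTN endothelial cells (8 of 1504 cells). The control was not analysed here for either gene.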

How the results depend on the processing

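Of 190 recomputed log2 ratios of the 7 genes in endothelial cells, 21 moved beyond their counting interval without a call changing sign, and 17 changed sign. Of those 17, 15 had been reported within 1.5-fold of no difference, and all 17 were ratios over the control. The other 2 were Icam1 in SS HTN over the control, at 0.057 with cells thinned to 1000 UMIs, and Alcam in the same comparison, at -0.022 with the looser limit. In other cells 18 of 175 moved and 7 changed sign, each reported within 1.5-fold. Of the ratios past 1.5-fold, recomputing ended the call 9 times in endothelial cells (Cd34 in A2 HTN, Icam1 and Alcam in SS HTN, over the control) and 3 times in other cells (Mcam over the control). The cause was not tested beyond the small control counts given above. Between the models, Icam1 ranged over alternatives from 0.74 to 0.96, Cd34 from 0.60 to 0.71, Vcam1 from 0.29 to 0.52 and Alcam from -1.58 to -0.74 on the log2 scale. Over the control, Vcam1 in A2 HTN ranged from 0.66 to 1.03 and Cd34 from 0.45, short of 1.5-fold, to 0.98. Ratios not past 1.5-fold were less settled, with Icam1 in A2 HTN from -0.40 (mean over cells) to 0.87 (thinned). Without control library 1 no endothelial ratio moved beyond its interval. Without control library 2, with 19 cells left, Vcam1, Icam1 and Alcam gave no value and 6 ratios moved. The level of Vcam1 in its highest endothelial cluster, over that in all endothelial cells, was 2.08 in the joint clustering (arterial-like cluster 6). It was 2.22 at resolution 0.5 (arterial-like cluster 4) and 9.75 with endothelial cells clustered alone (venous-like cluster 8). No joint cluster was named venous-like, and the 29 endothelial cells in myeloid-like joint cluster 8 had 687 CPM of Vcam1. Past 2-fold, fewer genes were called, for example 44 higher and 268 lower between the models, against 348 and 812 past 1.5-fold. No paired analysis was possible because each group is 1 library and no label pairs the control libraries with a model. Precision is limited by the 145 control endothelial cells.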
